A study of Mus musculus with 6 samples.

Results

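The protein-coding genes of the cytoplasmic ribosome were described in cultured mouse epidermal keratinocytes that were p63 alphaKO or wild type. Members were the rows whose symbol is Rpl or Rps followed by a number, together with Rplp0, Rplp1, Rplp2 and Rpsa, leaving out pseudogene rows and the Rps6k kinases. The rule took 86 of the 30349 genes listed. By symbol alone, 52 were assigned to the large subunit and 33 to the small subunit, without a check that each protein is part of the finished ribosome. The remaining 1, Rps19bp1, encodes a protein that binds a ribosomal protein and is not one itself. Levels are in CPM, the reads of a gene per 1000000 reads of its library, and the 83 members that averaged 1 CPM or more over the libraries were tested.

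Each group had 3 libraries, numbered 9, 10 and 11 for p63 alphaKO and 13, 14 and 15 for wild type. Keratinocytes of both groups were primary cells isolated from epidermis of mice at postnatal day 2 and grown to confluence in 5 to 6 days with 0.05 mM calcium, EGF at 2.5 ng/mL and chelated serum at 4%, so both were held in the low calcium that keeps these cells from stratifying. The labels do not give the strain, the exons that the p63 alphaKO allele lacks, or whether the libraries of a group came from separate animals, so that p-values measure the spread between these libraries, which may be technical. Trp63 itself was read at 49.8, 59.3 and 57.0 CPM in p63 alphaKO libraries, against 38.0, 53.2 and 48.9 CPM in wild type libraries. As the lost exons are not given, whether reads from the 3′ end of the gene can show this genotype was not tested.

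The ribosome pairs a small subunit, which holds the mRNA and reads its codons, with a large subunit, which joins the amino acids and releases the chain through an exit tunnel. Their proteins are made in nearly matched amounts from genes scattered over the genome. Most of these mRNAs start with a C followed by a run of pyrimidines, the TOP element, through which the mTOR kinase and Larp1 set how strongly they are translated. Translation of them can therefore change while the mRNA level does not, and the values here are mRNA levels.

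The start of several of the genes described below is shown to let runs of pyrimidines near it be seen. A run near the start is not by itself a TOP element, which begins at the first base of the mRNA. Each line holds the 40 bases before and the 20 bases after the RefSeq start on GRCm38.p6, 5′ to 3′ on the gene's own strand, and capitals mark the longest run of a C followed by at least 6 bases that are each C or T within 20 bases of the start. The windows are chr14:18270967-18271026 (minus strand) for Rpl15, chr4:86857348-86857407 (minus) for Rps6, chr2:26910767-26910826 (plus) for Rpl7a, chr7:141447611-141447670 (plus) for Rplp2, chr3:28805468-28805527 (plus) for Rpl22l1 and chr15:5116573-5116632 (plus) for Rpl37.
Rpl15: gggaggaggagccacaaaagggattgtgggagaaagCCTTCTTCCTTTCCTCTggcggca
Rps6: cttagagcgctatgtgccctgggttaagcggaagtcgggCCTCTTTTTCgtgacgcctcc
Rpl7a: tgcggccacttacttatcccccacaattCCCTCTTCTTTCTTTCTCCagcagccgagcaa
Rplp2: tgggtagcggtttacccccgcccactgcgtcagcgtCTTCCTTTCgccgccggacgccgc
Rpl22l1: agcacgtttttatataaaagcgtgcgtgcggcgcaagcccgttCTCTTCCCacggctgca
Rpl37: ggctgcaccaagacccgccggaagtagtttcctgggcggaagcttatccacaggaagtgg

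The run was 17 bases long in Rpl15, 19 in Rpl7a, 10 in Rps6, 9 in Rplp2 and 8 in Rpl22l1. Counted from the RefSeq start, it began at -4 in Rpl15, -12 in Rpl7a, -1 in Rps6, -4 in Rplp2 and 3 in Rpl22l1. It thus spans the RefSeq start in all of these but Rpl22l1, where it lies after it. GENCODE starts each of these genes before its window, at 18271391 for Rpl15, 26910764 for Rpl7a and 86857412 for Rps6. The start is at 141447370 for Rplp2 and 28805436 for Rpl22l1. Whether their mRNAs start with the run is therefore not shown. The window of Rpl37 holds no run. GENCODE starts Rpl37 at 5116645, beyond the end of this window, so the window does not show whether the mRNA starts with a run. RefSeq promoters were found for 66 of the 86 members. A run of that kind was present in 35 of the 66 (53.0%), against 22.7% of 9110 genes that averaged 1 CPM or more and had a promoter in the table, and 18.7% of all 32851 promoters. The letters CCGGAAG, searched on both strands of the 300 bases around the start, were present in 26 of the 66 (39.4%), against 21.0% of the same 9110 genes and 8.86% of all promoters. The first CC of these letters, or the CTTCC of their reverse complement, can be part of a pyrimidine run. The Rpl37 window above shows the letters once. A match is a description of letters and not of a site in use.

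No ribosomal protein gene passed the threshold between p63 alphaKO and wild type keratinocytes. With limma on log2(CPM + 1) and p-values adjusted over all 11716 genes tested, 0 of 83 members had an adjusted p under 0.05, where 0.0427% of all genes did. Members stood on both sides of zero, 40 higher and 43 lower in p63 alphaKO, which is 51.8% lower beside 49.3% of all genes tested. Their median log2 fold change was -0.01, beside 0.01 for all genes, and their quartiles were -0.12 and 0.11.

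At an unadjusted p under 0.05 there were 3 members, Rpl15, Rps6 and Rpl29, all lower in p63 alphaKO, where 6.36% of all genes tested passed and 3.35% passed and were lower. edgeR and DESeq2, run on the reads recovered from the CPM, called 0 members each, where edgeR called 0.0171% and DESeq2 0.128% of all genes. Each had 3 members at an unadjusted p under 0.05, where 6.15% of all genes passed in edgeR and 5.54% in DESeq2, and these were the same 3 genes. Groups did not overlap for 5 members, where 11.5% of all genes tested did not. Of the 5, 3 were lower in p63 alphaKO (5.09% of all genes) and 2 were higher (6.45% of all genes).

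**Figure D1:**
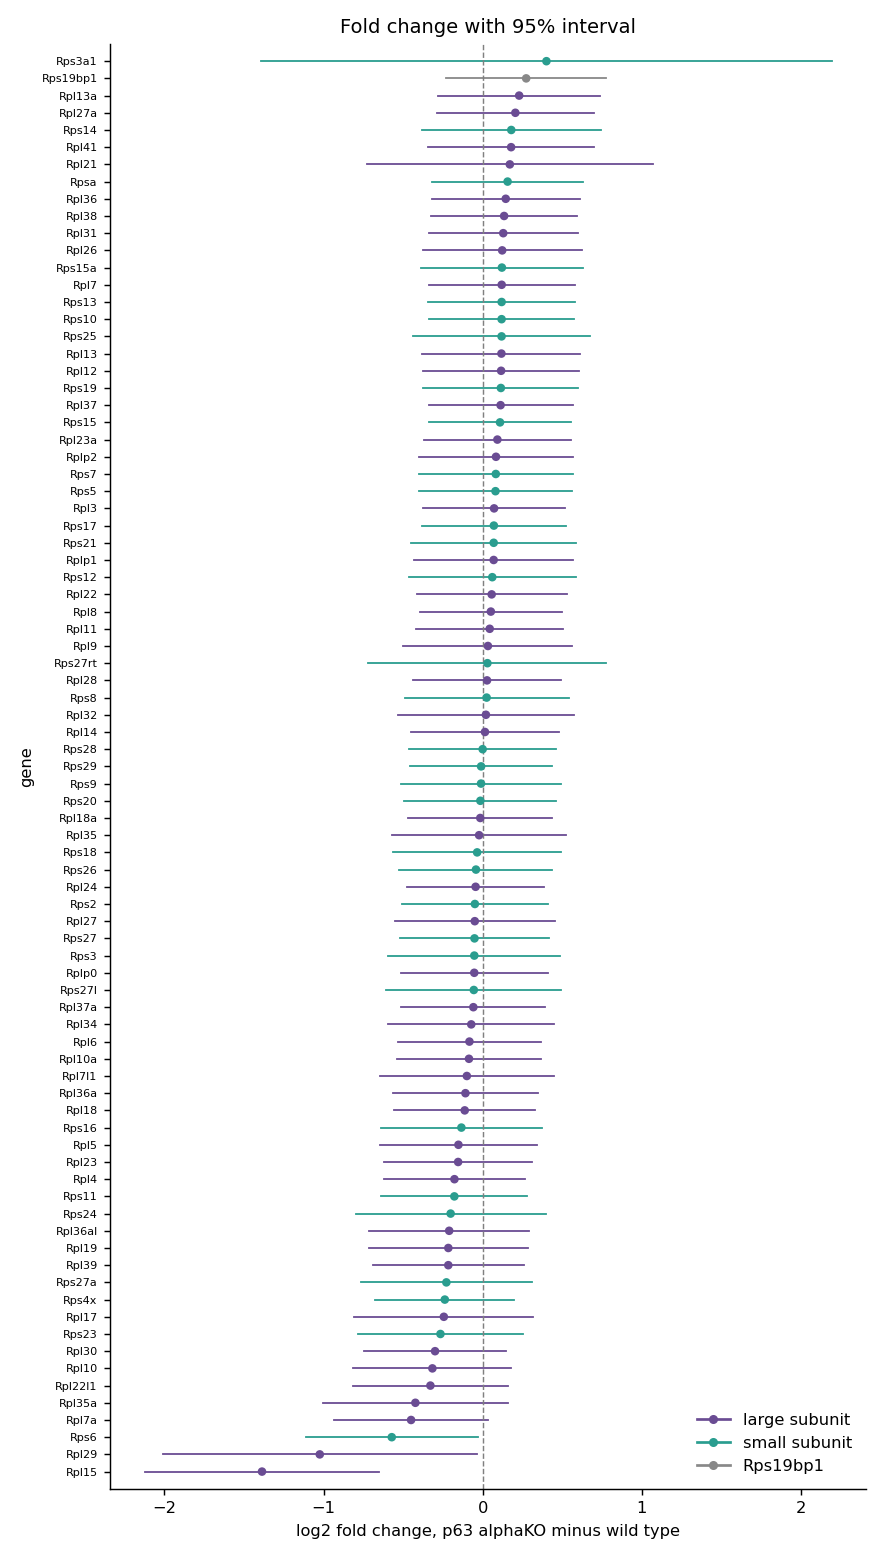
Log2 fold change on log2(CPM + 1), p63 alphaKO minus wild type, of the 83 ribosomal protein genes tested, with its 95% interval from limma (n = 3 per group), by subunit. The intervals of Rpl15, Rpl29 and Rps6 lie below 0, and those of the other 80 genes cross it.

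The intervals show which differences these libraries could hold. From the estimate to the end of its 95% interval, the median distance was 0.49 on the log2 scale, and the distance was 0.43 at its narrowest and 1.79 at its widest. A 2-fold difference in either direction lay outside the interval for 77 of the 83 members, and a 1.5-fold difference for 39. These intervals are for single genes, without adjustment over all genes tested, and the smallest difference that the adjusted threshold would call was not tested. On the log2(CPM + 1) scale, Rpl15 was 2.61-fold and Rpl29 2.03-fold lower in p63 alphaKO. Neither was called (limma adjusted p = 0.377 and 0.769). The point estimate was within 0.25 of zero for 72 members and beyond 0.5 for 3.

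Taken as a whole, the ribosomal protein genes held 11.85%, 11.17% and 15.20% of all reads in p63 alphaKO libraries 9, 10 and 11, against 11.55%, 12.29% and 13.60% in wild type libraries 13, 14 and 15. The means were 12.7% ± 2.16 and 12.5% ± 1.04 (SD, n = 3 each), which differ by less than the spread between libraries. The groups overlap, with library 11 highest and library 10 lowest of the 6, both p63 alphaKO. In bulk samples, fewer cells of a type and less RNA per cell cannot be told apart, and a share of reads does not give ribosomes per cell.

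Both subunits followed that order. Large subunit genes held 6.23%, 5.99% and 7.58% of reads in p63 alphaKO libraries, against 6.07%, 6.44% and 6.99% in wild type libraries. Small subunit genes held 5.61%, 5.18% and 7.62% in p63 alphaKO libraries, against 5.47%, 5.84% and 6.60% in wild type libraries. The ratio of small to large subunit reads was 0.8998, 0.865 and 1.01 in p63 alphaKO libraries, against 0.901, 0.907 and 0.944 in wild type libraries, and these groups overlap as well. Median log2 fold changes were -0.00041 for the small subunit (33 tested, 16 higher) and -0.02 for the large subunit (49 tested, 23 higher).

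**Figure D2:**
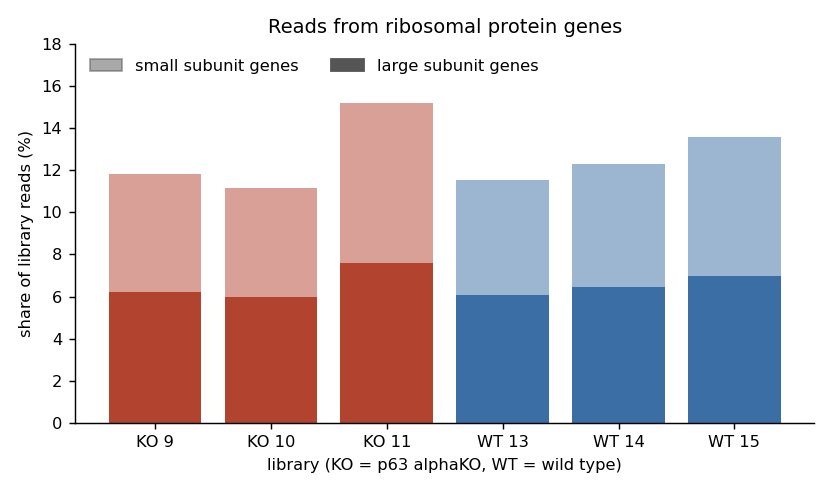
Share of each library's reads, in percent, that came from large and small subunit genes, stacked, for p63 alphaKO libraries 9 to 11 and wild type libraries 13 to 15. Libraries 11 and 15 have the tallest bar of their group, 15.20% and 13.60%, and library 10 has the lowest bar, 11.17%.

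The members stood high or low together from library to library, and libraries of a group differed more than the groups did. Each gene was set against its own mean of log2(CPM + 1) over the 6 libraries. In p63 alphaKO, 15 of 83 members stood above that mean in library 9, 7 in library 10 and 76 in library 11. In wild type, 17 stood above it in library 13, 40 in library 14 and 67 in library 15. Over all genes tested, 47.3% to 55.0% stood above their mean in any library.

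The median departure of the members was -0.09, -0.15 and 0.28 in p63 alphaKO libraries 9, 10 and 11, against -0.10, -0.0026 and 0.13 in wild type libraries 13, 14 and 15. Library 11 was the highest of the 6 for 50 members and library 10 the lowest for 38. For 52 members the 2 highest libraries were 11 and 15, 1 from each group. Large and small subunit genes shared this order, with medians in library 11 of 0.21 and 0.35.

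**Figure D3:**
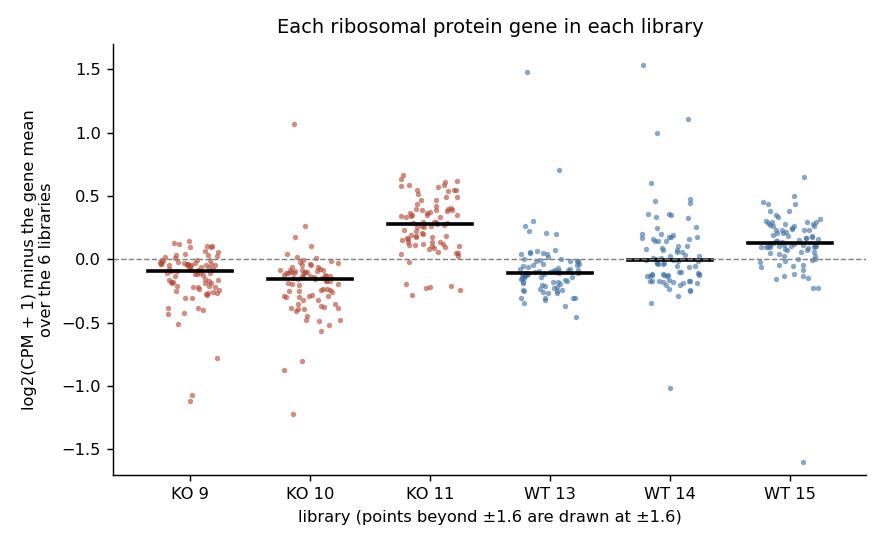
Log2(CPM + 1) minus the gene's mean over the 6 libraries for each of the 83 ribosomal protein genes tested, 1 point per gene and library, with the median of each library as a bar. Points sit mostly above zero in libraries 11 and 15 and mostly below it in libraries 9, 10 and 13, and the points far from zero include Rps3a1, Rpl15 and Rpl21.

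Short transcripts outside the ribosome were also highest in libraries 11 and 15, with smaller departures. The members are short, with a median annotated length of 711.5 bases. The 2007 other genes under 1000 bases had median departures of -0.02, -0.05 and 0.16 in p63 alphaKO libraries 9, 10 and 11, against -0.04, -0.06 and 0.08 in wild type libraries 13, 14 and 15. The 1993 other genes over 4000 bases ran the other way, at 0.10, 0.20 and -0.30 in p63 alphaKO libraries, against 0.13, 0.07 and -0.16 in wild type libraries. Library 11 was also the shallowest, at 1699716 reads, while library 15 had 3146374. The part of transcript length or depth in the order of the members was not tested.

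**Figure D4:**
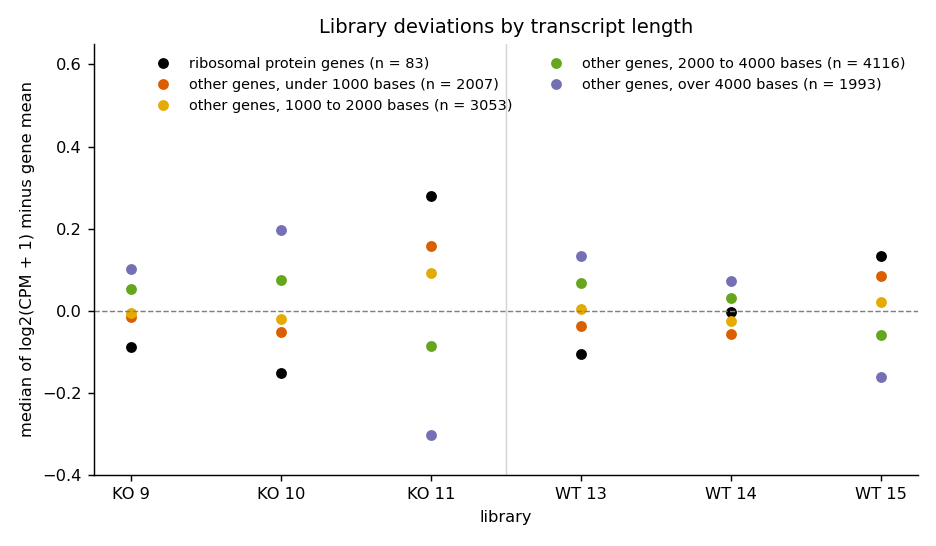
Median over genes of log2(CPM + 1) minus the gene's mean, per library, for the 83 ribosomal protein genes and for other genes in 4 classes of annotated transcript length. Ribosomal protein genes (0.28 in library 11, 0.13 in library 15) lie on the side of the short classes, and genes over 4000 bases lie opposite (-0.30 and -0.16).

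Since library 11 stood apart, the comparison was repeated without it, a choice that changes what is read from the set. Without library 11, 1 member had an adjusted p under 0.05, Rpl15, where 0.111% of all genes did. At an unadjusted p under 0.05 there were then 14 members, all lower in p63 alphaKO, where 4.19% of all genes were lower and past that limit. Of the 83 members 65 were lower, and their median was -0.11, beside 0.04 for all genes. Without library 10 the median was 0.10 and 56 members were higher, and without library 15 it was 0.09 and 48 were higher. The sign of the set therefore changed with the library left out.

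Leaving out library 15 and library 11 together gave a median of -0.07, with 35 members higher and 48 lower. Then 2 members, Rpl15 and Rps3a1, were below the adjusted threshold in limma, where 0.413% of all genes were, and both were lower in p63 alphaKO.

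Rpl15, a large subunit protein whose gene is mutated in some families with Diamond-Blackfan anemia, had the largest difference of the set. It lies on chromosome 14 from 18267823 to 18271391 on the minus strand. Its level was 27.9, 26.0 and 74.1 CPM in p63 alphaKO libraries 9, 10 and 11, against 101.5, 134.3 and 74.3 CPM in wild type libraries 13, 14 and 15. The groups do not overlap, but library 11 and library 15 lie next to each other at 74.1 and 74.3 CPM. The log2 fold change was -1.39 (SE 0.35, 95% interval -2.12 to -0.65), with an unadjusted p of 0.000976 and a limma adjusted p of 0.377. Without library 11 it was -1.86 (limma adjusted p = 0.00671), and without libraries 11 and 15 it was -2.08 (limma adjusted p = 0.000262).

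Rps6 encodes the small subunit protein that S6 kinases phosphorylate when mTOR is active. It lies on chromosome 4 from 86854660 to 86857412 on the minus strand. It was read at 48.0, 75.3 and 85.8 CPM in p63 alphaKO libraries, against 95.2, 104.8 and 103.6 CPM in wild type libraries, so that p63 alphaKO libraries all lie lower. The log2 fold change was -0.57 (SE 0.26, limma adjusted p = 0.767), and the adjusted threshold was not reached.

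Rpl29, a large subunit protein that mice can live without, was read at 3.20, 2.00 and 3.53 CPM in p63 alphaKO libraries, against 4.08, 9.95 and 7.62 CPM in wild type libraries. These levels stand for 7, 6 and 6 reads in p63 alphaKO libraries and 13, 32 and 24 reads in wild type libraries. The log2 fold change was -1.02 (SE 0.47, limma adjusted p = 0.769), and leaving out genes with a mean under 5 CPM keeps the gene but not its unadjusted p under 0.05.

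Rpl15, Rps6 and Rpl29 are among the 5 members tested with the lowest levels, together with Rps27rt and Rps19bp1. Their 3′ ends have many near copies in the genome. Of the 50-base words in the last 300 bases of its transcripts, Rpl15 shares 95.6% with other annotated genes, 20 in all and all pseudogenes. Rps6 shares 83.3%, with 11 pseudogenes, and Rpl29 shares 69.7%, with 44 genes of which 43 are pseudogenes. How the authors' counting treated reads that match several places is not given in the sources used here, so these 3 levels are uncertain, and the part of such reads in the differences was not tested.

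Near copies are common in the set. Of the 86 members 54 share at least 50% of these words and 32 share fewer. The median log2 fold change was -0.01 for the 54, all tested, and -0.01 for the 29 tested of the 32. The median of their mean levels was 1352 CPM for the 54 and 1437 CPM for the 32. The 3 members at an unadjusted p under 0.05 are all among the 54.

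**Figure D5:**
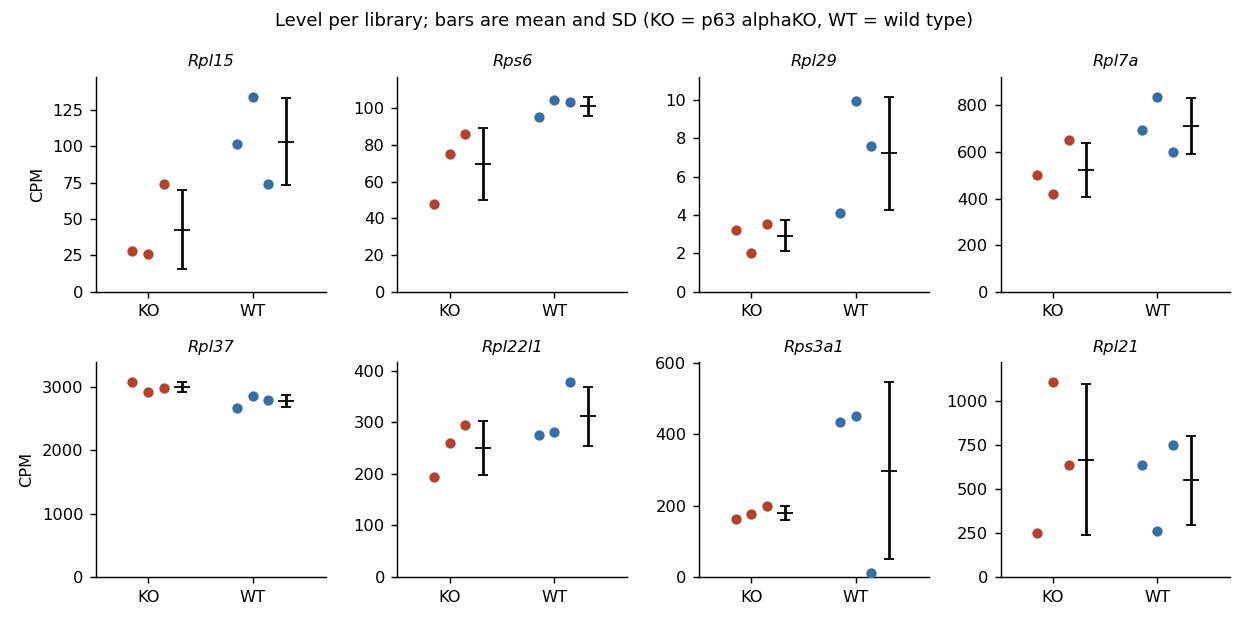
CPM in each library for 8 ribosomal protein genes, p63 alphaKO (KO) left of wild type (WT), with points in the order of library number and bars for mean and SD (n = 3). Rpl15, Rps6 and Rpl29 do not overlap between groups and are lower in p63 alphaKO, Rpl37 does not overlap and is higher, and Rps3a1 and Rpl21 differ more within a group than between groups.

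Other members at the lower end overlapped between the groups. Rpl7a, a large subunit protein, was read at 500.5, 420.2 and 649.5 CPM in p63 alphaKO libraries, against 695.0, 838.1 and 598.8 CPM in wild type libraries (log2 fold change -0.45, SE 0.23, limma adjusted p = 0.794). Library 11 lies above library 15 here. Log2 fold changes were -0.42 for Rpl35a, -0.33 for Rpl22l1, -0.32 for Rpl10 and -0.30 for Rpl30. None of them passed the threshold.

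Among members higher in p63 alphaKO, 2 had groups that did not overlap. Rpl37 was read at 3078, 2928 and 2988 CPM in p63 alphaKO libraries, against 2674, 2851 and 2798 CPM in wild type libraries. The groups do not overlap, and the log2 fold change was 0.11 (SE 0.21, limma adjusted p = 0.986). Rps19bp1, which is no ribosomal protein, was read at 73.5, 81.0 and 68.8 CPM in p63 alphaKO libraries, against 54.4, 68.7 and 61.6 CPM in wild type libraries. It also does not overlap (0.27, SE 0.24, limma adjusted p = 0.914). However, libraries 11 and 14 lie at 68.77 and 68.70 CPM, closer than 1 read, which is 0.588 CPM in library 11. Neither gene shares a 50-base word of its 3′ end with another annotated gene.

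Rpl13a, Rpl27a, Rpl41, Rps14, Rpsa, Rpl36 and Rpl38, which with Rps19bp1 had the smallest p-values among higher members, had log2 fold changes of 0.23, 0.20, 0.18, 0.18, 0.16, 0.14 and 0.13, and overlapped between groups. Of these 7, Rpl27a and Rpl38 stayed above zero in all 6 fits that left out 1 library. The other 5 fell slightly below zero without library 11, to between -0.0034 and -0.080.

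Among the 78 members with a mean over 100 CPM, 2 differed more than 3-fold between their extreme libraries, Rps3a1 and Rpl21. Rps3a1, a small subunit protein, was read at 161.2, 175.6 and 199.8 CPM in p63 alphaKO libraries, against 433.9, 450.4 and 11.8 CPM in wild type libraries. Library 15 lies 38.3-fold below the highest wild type library, while libraries 13 and 14 lie above all of p63 alphaKO. The log2 fold change was 0.40 (SE 0.85, limma adjusted p = 0.987), although the mean CPM is lower in p63 alphaKO, at 178.9 ± 19.5, than in wild type, at 298.7 ± 248.6 (SD, n = 3 each). edgeR and DESeq2 gave -0.74 and -0.73, and without library 15 the limma value was -1.31 (limma adjusted p = 0.0767). The sign for Rps3a1 thus depends on library 15 and on the scale.

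Rpl21, a large subunit protein, was read at 250.7, 1107 and 635.4 CPM in p63 alphaKO libraries, against 634.7, 260.8 and 747.4 CPM in wild type libraries. Its lowest libraries, 9 and 14, come 1 from each group, and its log2 fold change was 0.17 (SE 0.43, limma adjusted p = 0.990). Rpl21 shares 100% of its 3′ words with 67 other genes, 66 of them pseudogenes, and Rps3a1 shares 76.1% with 9. The part of such copies in this spread was not tested.

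The members differed somewhat less between libraries than other genes over 100 CPM, which were not matched to them for level. Among the 78 members with a mean over 100 CPM, the coefficient of variation had a median of 19.9% in p63 alphaKO and 13.1% in wild type, where counting alone gives 1.595%. The 1769 other genes over 100 CPM had 21.1% in p63 alphaKO and 14.8% in wild type. The ratio of the highest to the lowest library had a median of 1.52 for the members and 1.69 for the other genes. It was over 2 for 7 of the 78 members (8.97%), against 26.4% of the other genes.

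Reads at 3′ ends are not scaled by transcript length, so the order of levels is an order of reads. Rplp1 was highest, at 7677 ± 608 CPM in p63 alphaKO and 7316 ± 473 CPM in wild type (SD, n = 3 each). Rps14, Rps12, Rps26 and Rplp2 came next, with means over the 6 libraries of 5571, 5287, 4317 and 3951 CPM. Rps14 and Rps12 do not differ beyond their spread, nor do Rps26 and Rplp2, and Rps12 lies below Rps26 in library 13. Of the 83 members tested, 7 were over 3000 CPM, 58 lay between 500 and 3000 CPM, and 18 were under 500 CPM.

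The stalk of the large subunit recruits elongation factors and is built from Rplp0, which anchors it, and the acidic proteins Rplp1 and Rplp2, next to Rpl12 at its base. Rplp0 was read at 2021, 1937 and 2339 CPM in p63 alphaKO libraries, against 1901, 2262 and 2377 CPM in wild type libraries. Rplp2 was read at 4222, 3499 and 4485 CPM in p63 alphaKO libraries, against 4119, 4013 and 3370 CPM in wild type libraries. Both overlap between groups. The 4 log2 fold changes were -0.05 for Rplp0, 0.07 for Rplp1, 0.08 for Rplp2 and 0.12 for Rpl12, and none passed the threshold.

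Rpl5 and Rpl11 bind 5S rRNA and, when ribosome assembly is disturbed, hold back Mdm2, which lets p53 accumulate. Rpl5 was read at 413.7, 403.2 and 598.9 CPM in p63 alphaKO libraries, against 416.6, 629.2 and 523.8 CPM in wild type libraries (log2 fold change -0.15, SE 0.23). Rpl11 was read at 2039, 1937 and 2421 CPM in p63 alphaKO libraries, against 1819, 2087 and 2299 CPM in wild type libraries (0.04, SE 0.22). Both overlap between groups and did not pass the threshold in limma.

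Of the 10 members placed around the exit tunnel, 5 were higher and 5 lower in p63 alphaKO, with a median log2 fold change of 0.02. Of the 7 small subunit members placed along the path of the mRNA, 2 were higher and 5 lower, with a median of -0.04. Among these Rps14, on the platform of the small subunit, was read at 5354, 4363 and 8292 CPM in p63 alphaKO libraries, against 4892, 4627 and 5894 CPM in wild type libraries. Libraries 11 and 15 are again the highest. None of these members was called.

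In people, mutations in ribosomal protein genes cause Diamond-Blackfan anemia. Of 17 members with that link, 6 were higher and 11 lower in p63 alphaKO, with a median log2 fold change of -0.02. In limma 1 of them, Rpl15, had an unadjusted p under 0.05, where 6.36% of all genes tested did. In mice, mutations of Rps19, Rps20, Rpl24, Rpl27a and Rpl38 are known from changes of pigment, coat, feet or tail. Of these 5, 3 were higher and 2 lower, from -0.04 for Rpl24 to 0.20 for Rpl27a. Rps19 was read at 1531, 1401 and 2070 CPM in p63 alphaKO libraries, against 1278, 1544 and 1774 CPM in wild type libraries. Rpl38, which in mice is needed to translate certain Hox mRNAs, was read at 1102, 1103 and 1391 CPM in p63 alphaKO libraries, against 1003, 986.4 and 1293 CPM in wild type libraries. Both overlap between groups, and 0 of these 5 passed the threshold.

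Several ribosomal proteins have a second gene that encodes a similar protein, and the level of each was taken as a percent of its partner, which removes what a library does to both alike. Rpl22l1, which can take the place of Rpl22 and is held down by it in mouse, stood at 18.1%, 25.2% and 20.3% of Rpl22 in p63 alphaKO libraries, against 25.8%, 27.7% and 29.0% in wild type libraries. The p63 alphaKO libraries all lie lower. The difference of the log2 ratios was -0.39, with a two-sided exact permutation p of 0.1, the smallest that 3 libraries against 3 allow, and 0.5 after Benjamini-Hochberg adjustment over the 5 pairs compared. Rpl22 itself was read at 1067, 1033 and 1457 CPM in p63 alphaKO libraries, against 1073, 1018 and 1308 CPM in wild type libraries.

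The other 4 pairs overlapped between groups. Differences of log2 ratios were -0.22 for Rpl7l1 against Rpl7, -0.10 for Rpl36al against Rpl36a, -0.0046 for Rps27l against Rps27 and 0.08 for Rps27rt against Rps27. Their exact permutation p-values ran from 0.4 to 1. Rps27l stood at 26.2%, 25.2% and 31.7% of Rps27 in p63 alphaKO libraries, against 25.7%, 24.2% and 34.1% in wild type libraries, so that libraries 11 and 15 are the highest of each group. Rps27rt shares 88.4% of its 3′ words with Rps27, and its level is uncertain.

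Paralogs with a restricted tissue range stood near the floor. Rpl3l, the copy of Rpl3 used in striated muscle, had 4 reads in library 11 and 4 in library 15, and 0 in the other libraries of both groups. Skeletal muscle markers, 11 genes summed, stood at 36.1, 44.7 and 116.4 CPM in p63 alphaKO libraries, against 112.5, 116.6 and 823.0 CPM in wild type libraries, with the highest sum of each group in the same libraries 11 and 15. All 9 muscle markers tested were lower in p63 alphaKO, with a median log2 fold change of -2.29, where 49.3% of all genes tested were lower. At an unadjusted p under 0.05 there were 8 in limma, 9 in edgeR and 3 in DESeq2, where 6.36%, 6.15% and 5.54% of all genes passed. By any of these tools 0 were called. Of these markers Myh3 and Myh8 were at 0 in all 6 libraries, Tnnt3, Myl1 and Ttn in library 9, Ckm in libraries 9 and 10, and Des in libraries 9, 10, 11 and 14. The part of muscle cells in these reads was not tested. Rpl39l had 1, 1 and 0 reads in p63 alphaKO libraries and 1, 4 and 2 in wild type libraries. Rpl10l, which replaces Rpl10 in male germ cells, had 0 reads in all 6, and 3 reads would be 0.933 to 1.76 CPM.

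Keratinocyte markers, 10 genes summed, stood at 36904, 33641 and 26073 CPM in p63 alphaKO libraries, against 34023, 35324 and 30621 CPM in wild type libraries. This sum was lowest in library 11 and, in wild type, in library 15, the libraries where ribosomal protein genes were highest. Krt5 and Krt14 made up most of it, with 26547, 23474 and 18865 CPM in p63 alphaKO libraries, against 24742, 24684 and 22486 CPM in wild type libraries. Single markers differed. Perp was highest of its group in libraries 11 and 15, at 1633 and 1467 CPM, and Trp63 and Itga6 were lowest in libraries 9 and 13. Melanocyte markers, 11 genes summed, were lowest of each group in libraries 11 and 15. They stood at 558.0, 1038 and 233.9 CPM in p63 alphaKO libraries, against 833.6, 763.5 and 311.9 CPM in wild type libraries. Fibroblast markers summed to between 6.47 and 50.3 CPM and immune and Langerhans cell markers to between 2.86 and 9.99 CPM in any library. In p63 alphaKO, 8 of 10 keratinocyte, 7 of 10 melanocyte and 8 of 8 fibroblast markers tested were lower, where 49.3% of all genes tested were. Of these markers 0 were called in limma, edgeR or DESeq2, and 0 had an unadjusted p under 0.05 in any of them. The part of other cells in the ribosomal protein levels was not tested.

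No gene that builds ribosomes passed the adjusted threshold in limma. There were 54 genes for the transcription of rRNA and the assembly of subunits. Of these, 39 were lower and 15 higher in p63 alphaKO, where 49.3% of all genes tested were lower. Their median log2 fold change was -0.12. In limma 3 of the 54 had an unadjusted p under 0.05, where 6.36% of all genes tested did. edgeR and DESeq2 called 0 of them too, with 4 in edgeR and 2 in DESeq2 at that unadjusted p, where 6.15% and 5.54% of all genes passed. Ubtf, the factor that opens rDNA for RNA polymerase I, was read at 36.5, 48.7 and 29.4 CPM in p63 alphaKO libraries, against 72.3, 67.8 and 68.3 CPM in wild type libraries. The groups do not overlap (log2 fold change -0.87, SE 0.26, limma adjusted p = 0.606). Polr1b, a subunit of RNA polymerase I, stood at -0.88, Wdr75, which acts early in making the small subunit, at -0.54, and Nmd3, which takes the large subunit out of the nucleus, at -0.56.

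The summed level of these 54 genes was 10146, 12309 and 8108 CPM in p63 alphaKO libraries, against 11449, 12445 and 10401 CPM in wild type libraries. It was lowest in library 11 and, in wild type, in library 15, where the ribosomal protein genes were highest. Of 12 chaperones and importers of ribosomal proteins, 10 were lower and 2 higher, with a median of -0.21, where 49.3% of all genes tested were lower. In limma, edgeR and DESeq2 0 of them were called or had an unadjusted p under 0.05. Among them Ipo7, an importin, stood at -0.49 (limma adjusted p = 0.794), and Tsr2, a chaperone of Rps26, at -0.72 (limma adjusted p = 0.835). Tsr2 had 8, 31 and 10 reads in p63 alphaKO libraries, against 32, 31 and 40 in wild type libraries.

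Myc, a transcription factor that drives ribosome production, was read at 12.8, 6.66 and 12.9 CPM in p63 alphaKO libraries, against 31.4, 40.7 and 14.6 CPM in wild type libraries. The groups do not overlap, although libraries 11 and 15 lie close together (log2 fold change -1.28, SE 0.40, limma adjusted p = 0.646). Larp1, which holds TOP mRNAs when mTOR is off, was read at 297.7, 325.3 and 151.6 CPM in p63 alphaKO libraries, against 393.1, 635.1 and 251.9 CPM in wild type libraries, and overlaps. Of the 19 tested genes of mTOR and Myc control, 10 were higher and 9 lower, with a median of 0.07. Mycl, a relative of Myc, stood at 1.32 (SE 0.50, limma adjusted p = 0.729). It had only 11, 11 and 15 reads in p63 alphaKO libraries, against 4, 4 and 8 in wild type libraries. Mxd4, an antagonist of Myc, stood at 0.44 (limma adjusted p = 0.822). None of the 19 was called in limma, edgeR or DESeq2. In each, 3 had an unadjusted p under 0.05, where 6.36%, 6.15% and 5.54% of all genes did.

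Ribosomal components outside the naming rule lay near zero, as most members did. Fau encodes a small subunit protein fused to a ubiquitin-like part, and Rack1 is a scaffold on the small subunit. Their log2 fold changes were 0.09 for Fau and -0.0037 for Rack1, and neither was called in limma, edgeR or DESeq2. Of 18 other TOP mRNAs, for elongation factors and the like, 15 were lower and 3 higher, with a median of -0.08, and Tpt1 stood at -0.27. Of 28 initiation factors, 21 were lower and 7 higher, with a median of -0.09. Of all genes tested 49.3% were lower. Eif4a2, an RNA helicase that unwinds mRNA, stood at -0.73 (limma adjusted p = 0.767). None of the 46 was called in limma, edgeR or DESeq2. In each, 1 of them had an unadjusted p under 0.05, where 6.36%, 6.15% and 5.54% of all genes did.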

How the data were processed

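RNA of 6 libraries was sequenced as 3′ digital gene expression, per the labels' protocols. STAR, HTSeq and the build mm10 are named, without roles, per the submitters' processing notes. The treatment of multi-mapping reads, with versions and annotation, is not given in the sources used here. CPM with 2 decimals is the unit the authors deposited. At least 99.97% of a library's values lie within 0.1 read of a whole number of reads, which gave 1699716 to 3215333 reads per library. Floors and counting error cover reads only.

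Genes averaging 1 CPM or more, 11716 of 30349, were tested with limma 3.58.1 in R 4.3.3 (trend, two-sided, Benjamini-Hochberg, threshold 0.05) on log2(CPM + 1), p63 alphaKO minus wild type. Folds on this scale understate changes of low genes. Alternatives were other pseudocounts, filters, scalings and moderation, edgeR 4.0.16 and DESeq2 1.42.0 on recovered reads, and fits without libraries. The code was tested on simulated data.

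Members and lists were chosen with earlier results of these data known. Named are the 8 members of smallest p in each direction, the 5 highest and 5 lowest, functional subsets, those at 0, and up to 4 genes per other list; Rps3a1, Rpl21 and Rpl37 were also chosen after their values were seen. Coordinates and 3′ words are from GENCODE vM21 (GRCm38), and transcript lengths were found for 11252 tested genes. Promoters are from RefSeq. A result for 1 gene of a comparison list is not reported here.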

Additional observations from a re-analysis of the deposited data

How the results depend on the processing

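No paired analysis was possible because the groups share no replicate numbers. Members called stayed at 0 in limma with pseudocounts of 0.5 and 5, no filter, a minimum mean of 5 CPM, quantile and TMM scaling, CPM over non-ribosomal reads, no trend and robust moderation, and in edgeR and DESeq2. They were 0 to 1 when 1 library was left out and 2 without libraries 11 and 15. Genes called over the whole table, 5 in the reported fit, were 2 with a pseudocount of 0.5, 3 with 5, 1 with no filter, 2 with a minimum of 5 CPM, 0 with no trend (827 at an unadjusted p under 0.05), 2 by edgeR, 15 by DESeq2, 2 to 13 with 1 library left out and 48 without libraries 11 and 15. The median of the members ran from -0.11 to 0.10 with 1 library left out, and the difference of their sums from -9701 to 10463 CPM. Log2 fold changes below zero in p63 alphaKO without library 11 were -0.0034 for Rpl13a, -0.035 for Rpl41, -0.0048 for Rpsa, -0.080 for Rps14 and -0.014 for Rpl36, each above zero with all libraries, and the cause was not tested. Over the fits without 1 library these genes ran to 0.36, 0.35, 0.29, 0.38 and 0.25. Rpl15 ran from -1.86 to -1.12, Rps6 from -0.74 to -0.33 and Rpl29 from -1.34 to -0.78. The difference of the sums, p63 alphaKO minus wild type, was 2611 CPM over all members. It was 2598 CPM without Rps19bp1, 2249 CPM without Rplp1 and 1176 CPM over members sharing under 50% of their 3′ words. These alternatives were chosen after seeing the data. The last sums only 32 of the 86 members, so its difference is on another scale. The median of all genes was 0.0064 as deposited and lay between -0.014 and 0.012 under the other scalings. Depth limits Rpl29, Rpl3l and Rpl39l most, with 0 to 32 reads per library.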

Other observations

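Mitochondrial ribosomal proteins, which build the separate ribosome of that organelle, were likewise highest in libraries 11 and 15. Their 78 genes summed to 4570, 4287 and 6444 CPM in p63 alphaKO libraries 9, 10 and 11, against 4256, 4707 and 5748 CPM in wild type libraries 13, 14 and 15. Of the 76 tested, 37 were higher and 39 lower in p63 alphaKO, with a median log2 fold change of -0.0012, and 0 passed the threshold in limma or had an unadjusted p under 0.05 there. edgeR and DESeq2 also called 0, with 1 each at an unadjusted p under 0.05, where 6.15% and 5.54% of all genes passed.

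Of 25 genes of mitosis, all 25 were lower in p63 alphaKO, with a median log2 fold change of -0.69, where 49.3% of all genes tested were lower. Groups did not overlap for 13 of them, where 5.09% of all genes tested were lower without overlap. Ccna2, a cyclin of S phase and mitosis, was read at 16.0, 16.3 and 15.3 CPM in p63 alphaKO libraries, against 26.1, 42.3 and 54.0 CPM in wild type libraries (log2 fold change -1.25, limma adjusted p = 0.377). Cdc20, which activates the ligase that ends mitosis, stood at -0.87. In limma 0 of the 25 passed the adjusted threshold and 13 had an unadjusted p under 0.05, where 6.36% of all genes tested did. edgeR and DESeq2 called 0 as well, with 15 in edgeR and 14 in DESeq2 at that unadjusted p, where 6.15% and 5.54% of all genes passed.

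The p90 S6 kinases, whose symbols start like those of ribosomal proteins and which are no members, had 2 genes higher and 4 lower of 6 tested, with 0 called in limma, edgeR or DESeq2. Rps6ka5 was read at 5.94, 6.33 and 7.05 CPM in p63 alphaKO libraries, against 3.46, 3.11 and 1.91 CPM in wild type libraries (log2 fold change 0.98, limma adjusted p = 0.769).

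Copies of ribosomal protein genes with a row of their own were read as well. Gm10073, whose 3′ end shares words with Rplp1, was read at 192.0 to 258.6 CPM over the 6 libraries, and Gm2000, which shares words with Rpl35, at 49.96 to 109.9 CPM. The 9 pseudogene rows summed to 42.0, 38.3 and 41.7 CPM in p63 alphaKO libraries, against 30.5, 34.2 and 60.3 CPM in wild type libraries.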
